A study of Rattus norvegicus with 4 samples.

Results

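Melanotrophs are the endocrine cells of the intermediate lobe of the pituitary, and 56 of the 7861 rat cells in the table were taken as such here. A cell was selected when *Pomc* made up at least 2% of its unique molecular identifiers (UMIs, each the tag of 1 captured transcript), when it held at least 1 UMI of *Pax7* or at least 3 UMIs of *Pcsk2*, and when *Gh1* stayed below 5%, *Prl* below 2% and *Cga* below 1% of its UMIs. The main comparison group was the 824 other Pomc-high cells, which met the limits on *Pomc*, *Gh1*, *Prl* and *Cga* but had no *Pax7* UMI and under 3 *Pcsk2* UMIs.

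The cells were dispersed with trypsin and EDTA from the anterior pituitaries of Sprague Dawley rats and sequenced with the 10X Genomics 3′ chemistry. Females were in diestrus on postnatal day 44 and males were taken on postnatal day 59. For each sex, 4 pituitaries were pooled and the pool was loaded on 2 lanes, so the lanes are technical replicates and every p-value below measures only the error between lanes. Sex, pool and age cannot be told apart, and the intermediate and posterior lobes were removed by hand before dispersion.

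Corticotrophs of the anterior lobe and melanotrophs both make pro-opiomelanocortin, the product of *Pomc*. In corticotrophs the prohormone convertase encoded by *Pcsk1* releases ACTH, and in melanotrophs the convertase encoded by *Pcsk2* cuts ACTH further, which gives α-MSH. PAX7 is the pioneer factor that sets the melanotroph program apart from that of corticotrophs, and secretion from the intermediate lobe is held down by dopamine acting on D2 receptors, whereas corticotrophs answer to CRH, vasopressin and glucocorticoids.

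The female lanes held 1868 and 1861 cells (lanes A and B) and the male lanes 2047 and 2085 cells (lanes A and B). Melanotrophs were 0 of 1868 cells in female lane A, a count that allows a share of up to 0.161% at 3 cells of the total (0.197% as the upper exact Clopper-Pearson bound), and 1 of 1861 cells in female lane B (0.0537%, exact Clopper-Pearson 95% interval 0.00136 to 0.299%). They were 24 of 2047 cells in male lane A (1.17%, 0.753 to 1.74%) and 31 of 2085 cells in male lane B (1.49%, 1.012 to 2.104%). Both male lanes were above both female lanes, and the intervals of the male lanes overlapped each other. The male pool as a whole had 55 melanotrophs among 4132 cells (1.33%, 1.004 to 1.729%) and the female pool 1 among 3729 (0.0268%, 0.000679 to 0.149%), with no replicate pool behind the difference. Intervals cover counting error only.

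Cells with UMIs of at least 2 of *Lhx2*, *Nkx2-1* and *Rax*, developmental regulators that mark the posterior lobe and its pituicytes, followed the same split. There were 0 such cells in each female lane, 21 in male lane A and 23 in male lane B. The other Pomc-high cells did not split this way, with 174 and 181 cells in female lanes A and B and 236 and 233 in male lanes A and B. How much of the adjoining lobes stayed on the glands of each pool is not given in the sources used here, and its part in the difference between the pools was not tested.

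**Figure D1:**
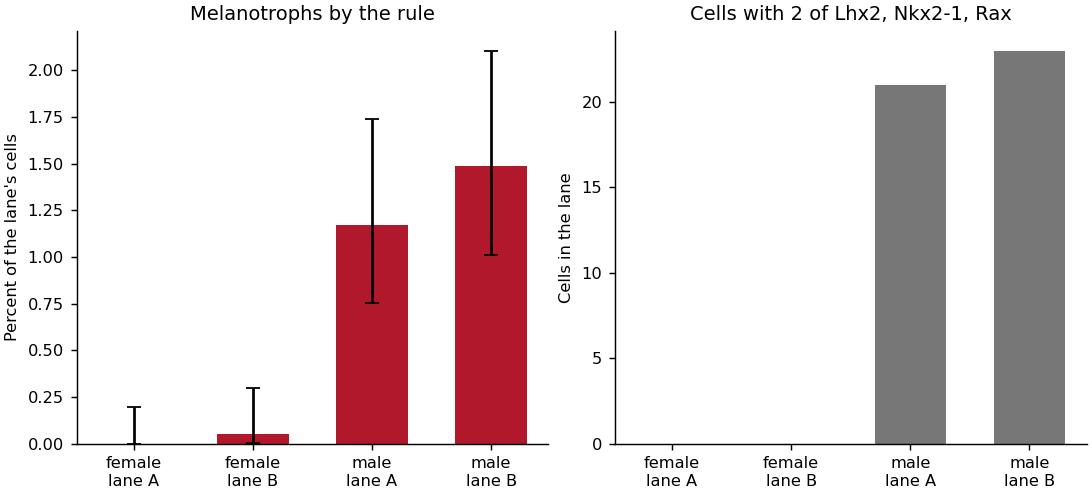
The left panel gives melanotrophs as a percent of each lane's cells with exact 95% Clopper-Pearson intervals, and the right panel counts cells with UMIs of at least 2 of the posterior lobe genes Lhx2, Nkx2-1 and Rax. Both are at or near 0 in the female lanes, and the male lanes show 1.17 and 1.49% melanotrophs and 21 and 23 posterior lobe cells.

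The 56 cells together held 666921 UMIs. The median melanotroph had 10600 UMIs from 2973 genes, against 11892 UMIs from 3237.5 genes in the median other Pomc-high cell. The values that chose the melanotrophs are given as a description. *Pomc* was 25.4% of the UMIs of the median melanotroph (range 3.92 to 66.8%) and 19.1% in the median other Pomc-high cell (2.01 to 48.5%), so the ranges overlapped over most of their width. *Pcsk2* reached a median of 10 UMIs per melanotroph (range 0 to 36), whereas 819 of the other Pomc-high cells had no *Pcsk2* UMI, 5 had 1 and none had 2. A *Pax7* UMI was found in 34 melanotrophs and 3 or more *Pcsk2* UMIs in 55, and 33 met both conditions, 22 the *Pcsk2* condition alone and 1 the *Pax7* condition alone.

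The *Pomc* limit fell in a gap. The 5 melanotrophs closest to the *Pomc* limit had *Pomc* shares of 3.92, 5.63, 6.70, 8.58 and 9.47%, and the closest cells below it that met the other conditions had 1.06, 0.714, 0.0771, 0.0694 and 0.0665%. In all, 31 cells met the *Pax7* or *Pcsk2* condition and the limits on the other hormones with *Pomc* below 2%. Of the melanotrophs, 2 had exactly 3 *Pcsk2* UMIs and 6 had exactly 4. No cell that met the *Pomc* and the *Pax7* or *Pcsk2* conditions was lost for its *Gh1*, *Prl* or *Cga*. The female melanotroph was also the deepest of the 56, with 28059 UMIs, and was 1 of the 2 melanotrophs that the doublet caller marked.

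**Figure D2:**
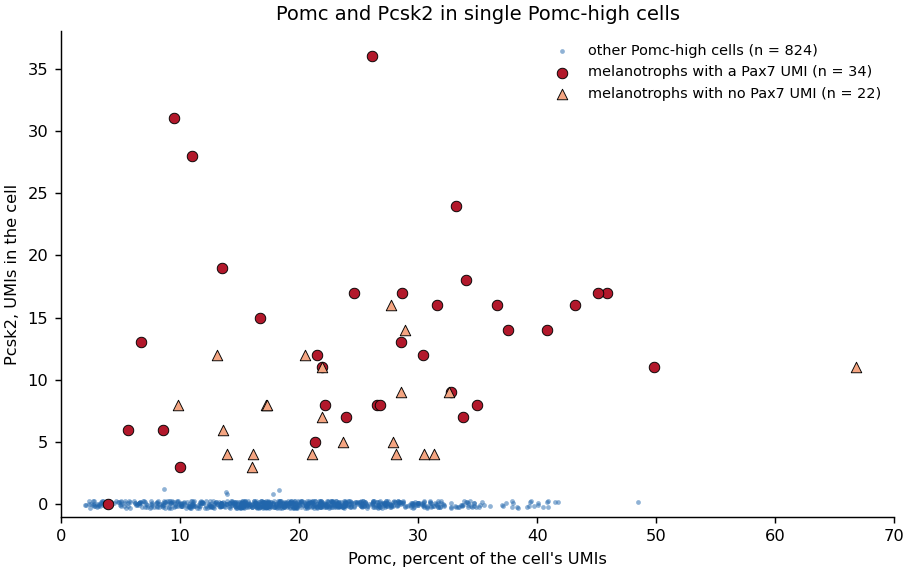
Each point is 1 cell, placed by Pomc as a percent of its UMIs and by its number of Pcsk2 UMIs (other Pomc-high cells are spread slightly in the vertical direction so that they can be seen). The 824 other cells lie at 0 or 1 Pcsk2 UMIs across the Pomc range, and all melanotrophs but 1, which had a Pax7 UMI, lie at 3 or more.

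The label was then read against genes that the selection did not use. They were picked with earlier results of these data known, so they are not independent evidence. *Crhr1*, *Avpr1b* and *Neurod1* below are also among the corticotroph-dominant genes that the study chose on these samples. *Drd2*, the dopamine D2 receptor, had a UMI in 49 of 56 melanotrophs and in 14 of 824 other Pomc-high cells. *Oacyl*, annotated as an O-acyltransferase, had one in 33 of 56 and in 1 of 824. Both genes were seen in 31 melanotrophs, 1 of them in 20, and neither in 5, all 5 from male lane B. Of 4 corticotroph genes (*Crhr1*, *Avpr1b*, *Nr3c1* and *Neurod1*), 36 melanotrophs showed none, 19 showed 1 and 1 showed 2 or more, whereas 793 of the 824 other Pomc-high cells showed 2 or more. *Tbx19*, the T-box factor that both Pomc lineages need, had a UMI in 78.6% of melanotrophs and 82.0% of the other Pomc-high cells, against 0.160% of 624 leukocytes, the cells used as a gauge of free RNA (median 6571.5 UMIs).

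**Figure D3:**
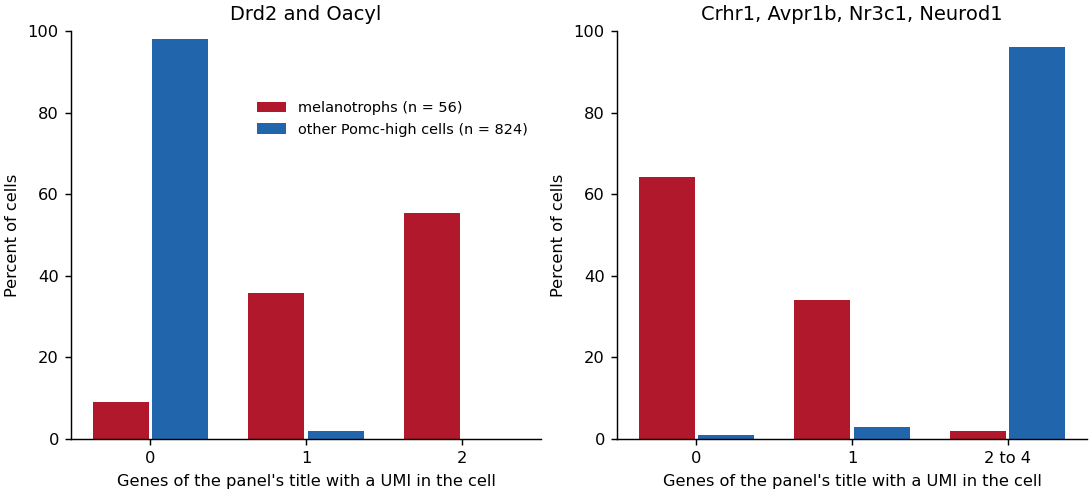
Bars give the percent of the 56 melanotrophs (red) and of the 824 other Pomc-high cells (blue) by how many genes of each set had a UMI in the cell. Of the melanotrophs, 31 showed both Drd2 and Oacyl and 36 showed none of the 4 corticotroph genes, while 793 other Pomc-high cells showed at least 2 of those 4.

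Melanotrophs with a *Pax7* UMI were deeper than those without one. The 34 cells with *Pax7* had a median of 11503 UMIs and the 22 cells without it 9050. *Drd2* was seen in 32 of 34 and 17 of 22, *Oacyl* in 22 of 34 and 11 of 22, and *Tbx19* in 29 of 34 and 15 of 22. At least 2 of the 4 corticotroph genes were seen in 1 of 34 and 0 of 22, and these shares were not compared by a test. Of the 31 cells below the *Pomc* limit, *Drd2* was seen in 2 and *Tbx19* in 2, and the folliculostellate markers *Fxyd1* and *Gstm2* were seen in 25 and 26.

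Across genes, UMIs were summed per lane and cell group and compared in female lane B and both male lanes, the lanes that held both groups. Of 10477 genes tested outside the 6 genes of the selection, 489 (4.67%) passed an adjusted p of 0.001, of which 254 (2.42%) were higher and 235 (2.24%) lower in melanotrophs. The difference reached 3-fold in 215 of the higher and 169 of the lower genes. In both male lanes, 485 of the 489 moved the same way. The calls were made on these same lanes, so that agreement is not a separate check. The median over all genes tested was -0.10 on the log2 scale. Because female lane B gave 1 melanotroph, the counts rested on the male lanes: 67 higher and 34 lower genes passed without male lane A, and 64 and 35 without male lane B, whereas 326 and 349 passed without female lane B. Levels below are UMIs per 10000 UMIs outside the 6 genes of the selection, fold changes are from the fit, and SE is the standard error of the log2 fold change. For called genes, a lack of overlap between the groups' levels describes the call and adds no evidence to it. How many of all genes tested lacked overlap was not counted.

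*Drd2* and *Gabra2* were the receptors of melanotroph control that were higher. *Drd2* stood at 1.07 in the female lane B melanotroph and at 2.81 and 2.63 in the melanotrophs of male lanes A and B, and at 0.00690, 0.0226, 0.0127 and 0.0258 in the other Pomc-high cells of female lanes A and B and male lanes A and B. Each of the 3 melanotroph values lay above each of the 4 others, and *Drd2* was 104-fold higher in the fit (log2 fold change 6.70, SE 0.36, adjusted p = 3.9e-73, higher in 3 of 3 lanes). *Gabra2*, the α2 subunit of the GABA-A receptor, was at 1.61, 0.761 and 0.762 in melanotrophs (female lane B, male lanes A and B) and between 0.00846 and 0.0452 in the other Pomc-high cells, again without overlap (31.7-fold higher, adjusted p = 3.4e-19). *Gabra4*, the α4 subunit, had no UMI in melanotrophs and 120 in the other Pomc-high cells, and did not pass (adjusted p = 0.0081).

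Of 34 listed receptors through which melanotrophs are known or thought to be controlled, 9 had enough UMIs to test, 2 (*Drd2* and *Gabra2*) were higher, none was lower and 7 did not pass. The median log2 fold change of the 9 was -0.89, or -0.36 with the 2 genes that had no UMI in melanotrophs set at their bounds. *Drd2* also passed without male lane A and without male lane B. *Gabra2* passed without male lane A (adjusted p = 5.2e-07) and had too few UMIs to test without male lane B.

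Of 8 tested receptors and modulators of corticotroph control, 4 were lower in melanotrophs. Of these, *Crhr1*, *Avpr1b* and *Mrap2* are also among the study's corticotroph-dominant genes, which were chosen on these same samples. *Avpr1b*, the V1b vasopressin receptor, had a level of 0 in the female melanotroph, 0.190 and 0.114 in the male lanes' melanotrophs, and 3.72 to 4.49 in the other Pomc-high cells of the 4 lanes (32.3-fold lower, log2 fold change -5.01, SE 0.39, adjusted p = 4.1e-34). *Crhr1*, the CRH receptor, was at 0, 0.475 and 0.305 in melanotrophs and at 3.23 to 3.40 in the others (9.44-fold lower, adjusted p = 8.2e-21). *Nr3c1*, the glucocorticoid receptor, was at 0, 0.190 and 0.114 against 1.90 to 2.09 (15.1-fold lower, adjusted p = 1.1e-18), and *Mrap2*, an accessory protein of melanocortin receptors, at 0, 0.0475 and 0.114 against 1.58 to 2.12 (21.3-fold lower, adjusted p = 2.5e-17). No melanotroph value of these 4 genes reached the lowest value of the other Pomc-high cells.

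The list of corticotroph control held 16 genes, 8 of which had enough UMIs to test. None of the 8 was higher, and their median log2 fold change was -1.74. *Crhr1*, *Avpr1b*, *Nr3c1* and *Mrap2* all passed without either male lane (adjusted p up to 8.9e-05), and the log2 fold change of *Mrap2* went from -4.41 to -5.33 without male lane B. *Nr3c2*, the mineralocorticoid receptor, and *Il6st*, the shared signal chain of IL-6 type cytokines, did not pass, with log2 fold changes of 0.12 (SE 0.65) and -0.03 (SE 0.32). The share of melanotrophs with a *Crhr1* UMI was 21.4%, above the 0.160% of leukocytes, while that of *Avpr1b* was 5.36% against 0.962%.

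**Figure D4:**
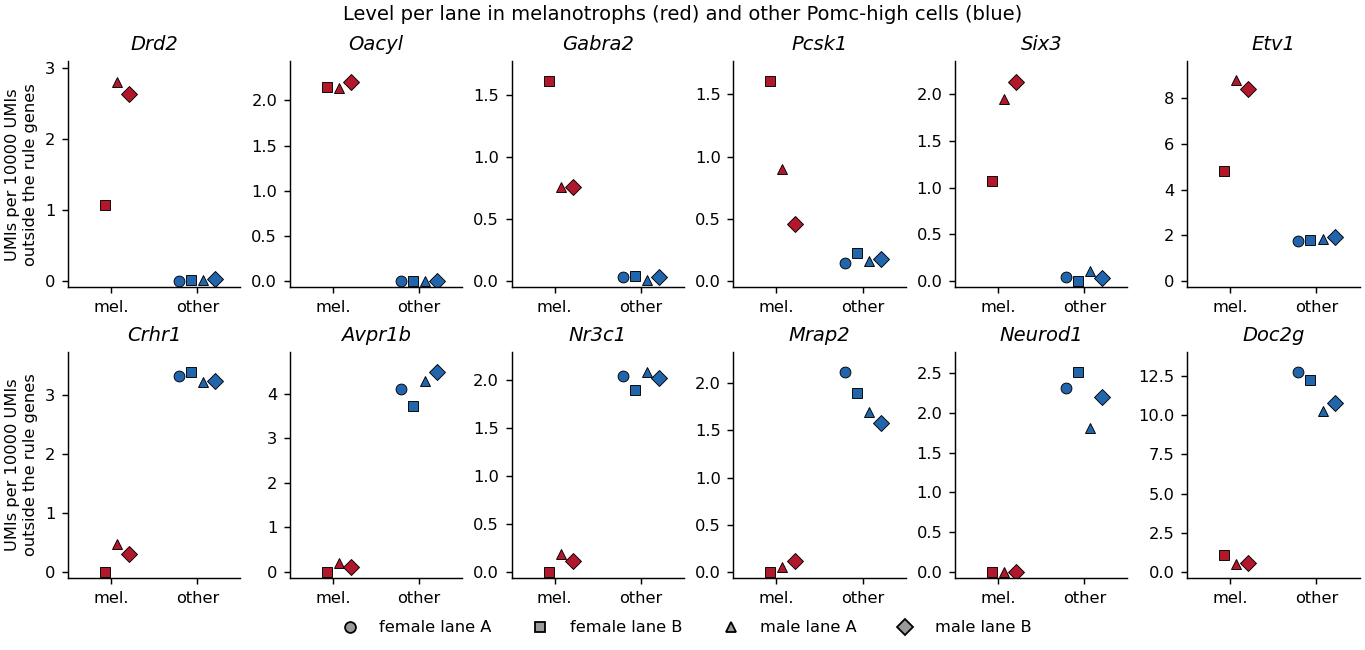
Levels of 12 genes (UMIs per 10000 UMIs outside the 6 genes of the selection) are drawn per lane for melanotrophs (red, 3 lanes) and other Pomc-high cells (blue, 4 lanes), each panel on its own linear axis. The 6 genes of the upper row lie higher in every lane with melanotrophs and the 6 of the lower row lie lower, without overlap. For example, Oacyl is at 2.15, 2.14 and 2.21 against at most 0.00431. The 12 were picked from the called genes, so their separation adds no evidence to the calls. The female lane B value of melanotrophs comes from 1 cell.

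Of 11 tested genes in the list of POMC processing and granule maturation, *Oacyl* and *Pcsk1* were higher, none was lower and 9 did not pass, with a median log2 fold change of 0.76. *Oacyl* stood in this list by its annotation as an acyltransferase, and no value here shows that its product acts on POMC peptides. *Pcsk5* and *Pcsk6*, convertases of the same family, had no UMI in melanotrophs and 66 and 86 in the other Pomc-high cells, and did not pass. *Oacyl* was at 2.15 in the female melanotroph and 2.14 and 2.21 in the male lanes, and 107 of the 140 UMIs of the gene in the table lay in the 56 melanotrophs. The other Pomc-high cells had a single UMI, in male lane B, a ratio of rates of 1721 (counting interval 302 to 68620, adjusted p in the fit 2.0e-66). *Pcsk1*, the convertase of the ACTH cut, was at 1.61, 0.903 and 0.457 in melanotrophs against 0.145 to 0.226 in the others (3.74-fold higher, log2 fold change 1.90, SE 0.40, adjusted p = 5.4e-05). The *Pcsk1* call was lost without male lane A (adjusted p = 0.36) and without male lane B (0.0019).

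The other processing genes did not pass. *Cpe*, the carboxypeptidase that trims the cut peptides, was at 41.3, 22.5 and 20.1 in melanotrophs and 18.1 to 22.5 in the others (log2 fold change 0.15, SE 0.26). *Scg5*, which encodes 7B2, the chaperone of the *Pcsk2* product, had a log2 fold change of -0.04 (SE 0.25) and a UMI in 100% of melanotrophs and 99.9% of the other Pomc-high cells. *Pam*, which amidates peptides and makes the amidated end of α-MSH, differed by 0.53 on the log2 scale (SE 0.21, adjusted p = 0.084), and *Ctsl*, a cathepsin of granules and lysosomes, by 0.76 (SE 0.21, adjusted p = 0.0047). *Prcp*, a carboxypeptidase that inactivates α-MSH, was seen in 16.1% of melanotrophs and 3.40% of the others and did not pass (adjusted p = 0.044).

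Of 19 tested granins and other granule proteins, 2 were lower, none was higher and 17 did not pass, with a median of -0.03. *Chgb*, a granin, stood at 15.6, 13.3 and 11.5 in melanotrophs and 26.6 to 28.4 in the others (2.40-fold lower, adjusted p = 7.9e-05), and *Rab3b*, a small G protein of secretory vesicles, at 5.90, 5.75 and 5.94 against 15.5 to 16.2 (log2 fold change -1.58, SE 0.26, adjusted p = 6.5e-08). The levels of each gene did not overlap between the groups, yet neither call held without male lane A (adjusted p up to 0.28) or without male lane B (up to 0.30). *Chga* and *Scg2* did not pass, with log2 fold changes of 0.48 (SE 0.23) and -0.03 (SE 0.23).

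In the machinery of exocytosis, 3 of 25 tested genes were higher, 3 were lower and 19 did not pass (median 0.13). *Cplx2*, a complexin that clamps vesicle fusion, was at 0, 0.903 and 0.914 in melanotrophs and 0.0904 to 0.125 in the others, so that the female melanotroph, with no UMI, lay below them (7.20-fold higher, adjusted p = 1.4e-10). *Stx1a* (4.10-fold) and *Syt4* (1.88-fold), a syntaxin and a synaptotagmin, were also higher. *Doc2g*, of the double C2 domain family, was at 1.07, 0.523 and 0.571 against 10.3 to 12.8 (19.8-fold lower, adjusted p = 2.0e-35). Of the 6 calls, *Doc2g* passed without either male lane, and the rest lost the call without at least 1 of them, with adjusted p up to 0.66 without lane A and 0.46 without lane B.

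Among 44 tested transcription factors of pituitary development, 8 were higher, 5 were lower and 31 did not pass (median 0.10). *Six3*, a homeobox factor of the forebrain and pituitary primordium, was at 1.07, 1.95 and 2.13 in melanotrophs and 0.00565 to 0.110 in the others (higher by 4.91 on the log2 scale, SE 0.35, adjusted p = 1.1e-41), and by 6.15 without male lane A and 4.25 without male lane B. *Etv1*, an ETS factor, was at 4.83, 8.80 and 8.38 against 1.74 to 1.94 (3.85-fold higher, adjusted p = 2.4e-19). *Lhx3* (4.98-fold), a LIM homeobox factor of the early pituitary, *Sox2* (3.89-fold), a factor of pituitary progenitors, *Nr4a1* (4.59-fold), an orphan nuclear receptor that acts on *Pomc*, *Hey1* (4.63-fold) and *Tle3* (8.71-fold), Notch and corepressor family genes, were higher too.

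On the other side, *Neurod1*, the bHLH factor that works with *Tbx19* in corticotrophs, had no UMI in any melanotroph and 1721 UMIs in 60.0% of the other Pomc-high cells. With 3 UMIs over the group as the limit of a count of 0, it was at least 35.7-fold lower (adjusted p = 2.8e-26). *Lmx1a*, a LIM homeobox factor, was at least 8.10-fold lower on the same reckoning. *Meis2*, a homeobox cofactor, had 3 UMIs against 482 (ratio of rates 9.99, interval 3.40 to 48.6), *Eya1*, a transcriptional coactivator, 1 against 249 (15.5, 2.75 to 614), and *Hes6*, a bHLH repressor of the Hairy family, was lower (log2 fold change -1.07, SE 0.24). The 1 melanotroph UMI of *Eya1* lay in male lane A, and its log2 fold change went from -4.06 to -2.86 without male lane B. *Tbx19* and *Pitx1*, factors shared by both lineages, did not pass, with log2 fold changes of -0.55 (SE 0.23) and 0.15 (SE 0.22). *Six3*, *Nr4a1* and *Neurod1* were called without either male lane. The other 10 were not called without at least 1 of these lanes, among them *Lhx3* (adjusted p = 0.69 without male lane B), whose level was 0.475 in lane A and 1.22 in lane B and whose log2 fold change was 3.23 without lane A and 1.14 without lane B, and *Etv1* (0.031 without male lane A).

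Peptide genes other than *Pomc* gave 1 higher and 3 lower of 10 tested (median -0.46). *Pdyn*, the dynorphin precursor, was at 1.61, 0.903 and 0.724 in melanotrophs and 0.0508 to 0.103 in the others (14.4-fold higher, log2 fold change 3.85, SE 0.45, adjusted p = 8.9e-16), and it passed without either male lane. *Penk*, the enkephalin precursor, did not pass (log2 fold change 0.44, SE 0.46). *Nmb*, for neuromedin B, was 4.82-fold lower, *Nppc*, for C-type natriuretic peptide, had 2 UMIs, both in male lane B, against 352 (ratio 10.9, interval 3.01 to 90.7), and *Inhbb*, for the activin βB subunit, had no UMI against 207 (at least 4.29-fold lower). The log2 fold change of *Nmb* went from -2.27 to -3.21 without male lane A. Those 3 calls were not kept without male lane A (adjusted p up to 0.22) or male lane B (up to 0.19).

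Channels of excitability gave 4 higher and 3 lower of 41 tested (median -0.10). *Cacna2d2*, an α2δ subunit of voltage-gated calcium channels, was at 0.536, 1.19 and 0.952 in melanotrophs and 0.0431 to 0.0552 in the others, without overlap (19.5-fold higher, adjusted p = 3.7e-21). *Cacna1d*, the pore of an L-type calcium channel (2.89-fold), *Kcnh7*, an ERG-type potassium channel (6.50-fold), and *Unc80*, which the table lists as LOC689991 and which holds the sodium leak channel complex (2.34-fold), were higher. *Cacng2*, or stargazin, had no UMI against 637 (at least 13.2-fold lower), *Kcnd2*, an A-type potassium channel, had 2 against 306 (ratio 9.51, interval 2.61 to 78.9), and *Kcnk2*, a leak potassium channel, was 2.43-fold lower. *Cacna2d2* alone of these 7 was called both without male lane A and without male lane B, and *Cacng2* was called without lane B (adjusted p = 2.6e-04) but not without lane A (0.0012).

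In cAMP and G protein signalling, 4 of 36 tested genes were higher and 3 lower (median 0.17). *Gng3*, a G protein γ subunit, was at 0.536, 5.18 and 5.87 in melanotrophs and 0.800 to 1.33 in the others, with the female melanotroph below the other groups (3.94-fold higher, adjusted p = 3.9e-20). *Pkib*, an inhibitor of protein kinase A (4.73-fold), *Ppp1r1a*, an inhibitor of protein phosphatase 1 (3.47-fold), and *Pde1a*, a calcium-dependent phosphodiesterase (13.6-fold), were also higher. *Rasd1*, a glucocorticoid-induced small G protein, was at 0, 0.333 and 0.495 against 3.75 to 4.54 (11.3-fold lower, adjusted p = 1.2e-25), *Adcy2*, an adenylyl cyclase, had 2 UMIs against 475 (ratio 14.8, interval 4.06 to 122), and *Camk1* was 2.90-fold lower. Of these, *Rasd1* passed without either male lane, and *Pkib* passed without lane B only. *Pde1a* had too few UMIs to test without either lane, and adjusted p of the rest reached 0.13 without lane A and 0.015 without lane B.

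Genes of adhesion gave 3 higher (*Itgb8*, *Nrxn2* and *Pcdh9*) and 2 lower (*Chl1* and *Cntn1*) of 16 tested (median -0.29). *Itgb8*, an integrin subunit, was at 0.536, 0.761 and 0.571 in melanotrophs and 0 to 0.0423 in the others (27.9-fold higher, adjusted p = 7.6e-15). Listed genes below the count limit of the test are not in these counts. Among them, named after their values were seen, *Cdh10*, a cadherin, had 10 UMIs in melanotrophs against 1 (ratio of rates 161, interval 22.9 to 6982), *Cntn4*, a contactin, 15 against 3 (80.4, 22.8 to 434) and *Cdh4*, a cadherin, 8 against 3 (42.9, 10.3 to 251). None of the 5 tested calls held without male lane A or without male lane B, where *Itgb8* and *Nrxn2* had too few UMIs to be tested and the rest had adjusted p up to 0.23 and 0.28.

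Genes of protein folding in the endoplasmic reticulum gave 1 higher (*Hyou1*, a chaperone, 2.83-fold) and 2 lower (*Sec11c*, a signal peptidase subunit, 2.94-fold, and *Hsp90b1*, a chaperone, 2.07-fold) of 31 tested, with a median of -0.14. Of these, *Hyou1* passed without male lane B (log2 fold change 2.12, adjusted p = 7.7e-05), and none passed without male lane A (up to 0.51). No gene of 14 tested in the cell cycle list passed (median 0.40), where 4.67% of all genes tested did. *Mki67*, *Top2a*, *Ccnb1*, *Ccna2* and *Birc5* were among the listed genes with too few UMIs to test. Division of the melanotrophs was therefore not assessed.

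Immediate early genes, which respond to stimulation and also to cell dispersion, gave 5 higher and 2 lower of 27 tested (median -0.12). *Dusp1*, a MAP kinase phosphatase, was at 17.7, 7.46 and 7.12 in melanotrophs and 1.36 to 2.22 in the others (4.60-fold higher, adjusted p = 1.3e-26). *Klf2* (4.70-fold), *Btg2* (2.77-fold), *Egr1* (2.08-fold) and *Ier2* (2.00-fold) were higher too, and the heat shock genes *Hspb1* (5.41-fold) and *Dnajb1* (2.20-fold) were lower. *Fos* and *Jun* did not pass, with log2 fold changes of -0.12 (SE 0.29) and -0.24 (SE 0.22). *Dusp1* passed without either male lane, whereas *Egr1*, *Ier2* and *Btg2* passed in neither case, *Klf2* only without lane B, and *Hspb1* and *Dnajb1* in neither case (adjusted p up to 0.96 without lane A and 0.53 without lane B). Without male lane A the log2 fold changes of *Klf2* and *Ier2* were 1.499 and 0.29, and without male lane B those of *Hspb1* and *Dnajb1* were -1.77 and -1.82.

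The corticotroph-dominant genes that the study listed were chosen on these same samples, so their direction is not independent evidence. Of 64 tested, 41 were lower in melanotrophs, 1 was higher and 22 did not pass, with a median log2 fold change of -1.81. Lists above share members with this one, so their lower calls are not separate from it. *Crhr1*, *Avpr1b*, *Mrap2*, *Neurod1*, *Lmx1a*, *Doc2g*, *Rab3b*, *Adcy2*, *Camk1* and *Cacng2* are among the shared genes. The higher one was *Adh1*, an alcohol dehydrogenase, at 6.44, 4.80 and 4.80 in melanotrophs and 2.16 to 2.72 in the other Pomc-high cells (1.89-fold higher, adjusted p = 1.2e-04), a call that was lost without male lane A (0.51) and without male lane B (0.48). Of the 42 calls, 16 passed without male lane A, 17 without male lane B and 14 in both cases.

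**Figure D5:**
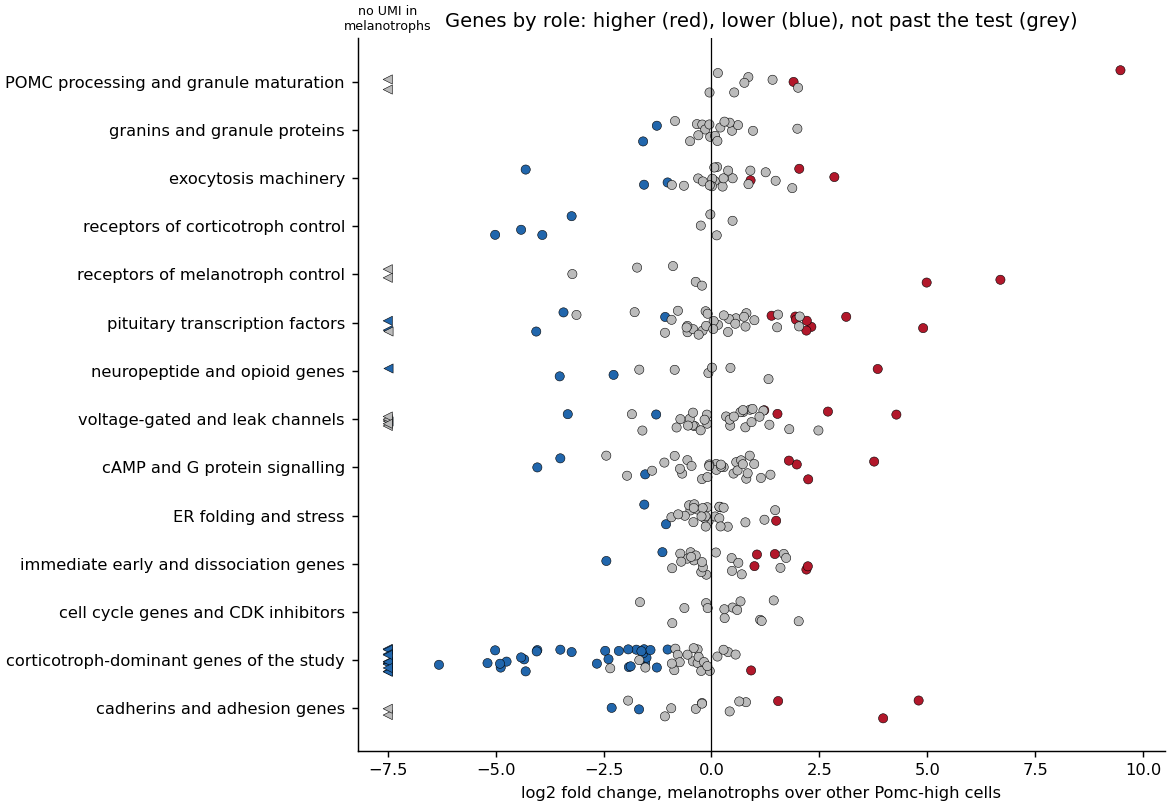
Each point is a tested gene of a list, placed by its log2 fold change in the edgeR fit (melanotrophs over other Pomc-high cells), in red or blue when it passed an adjusted p of 0.001 and in grey when it did not. Triangles at the left edge are genes with no UMI in melanotrophs, whose fold is not to scale. Most lists hold a few calls on either side, while 4 of 8 receptors of corticotroph control and 41 of 64 corticotroph-dominant genes are blue. Crhr1, Avpr1b and Mrap2 stand in both of these lists.

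The 15 genes with the largest differences toward melanotrophs, among called genes with a UMI in 20% of them, included *Drd2*, *Oacyl* and *Gabra2* and 12 genes outside the lists of processing and receptors. *Sema3e*, a secreted semaphorin that guides axons and vessels, was at 3.22, 2.33 and 1.68 in melanotrophs, with 99 UMIs in 67.9% of cells, and had 1 UMI in the other Pomc-high cells, in male lane B (ratio of rates 1593, interval 279 to 63530). *Thy1*, a surface glycoprotein of neurons and T cells, was at 4.29, 6.99 and 5.33 against 0.0138 to 0.0621 and was seen in 92.9% and 3.52% of cells (94.1-fold higher, log2 fold change 6.56, SE 0.27, adjusted p = 8.5e-124). *Brinp1*, an inhibitor of the cell cycle in neural cells, was at 3.22, 1.28 and 1.18 against 0.0282 to 0.0621 (33.2-fold higher, adjusted p = 6.4e-31).

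*Vax1*, a homeobox gene of the ventral forebrain, was seen in 33.9% of melanotrophs and in 0.243% of the other Pomc-high cells (ratio of rates 156, interval 48.2 to 798). *Lpl*, lipoprotein lipase (61.8-fold), *Chia*, an acidic chitinase (57.7-fold, a log2 fold change of 5.85 that became 6.72 without male lane A), *Tmem200a* (44.2-fold), *Myh6*, a cardiac myosin heavy chain with a near copy in *Myh7* (42.6-fold), and *Wnt5b*, a WNT ligand (34.1-fold), were each seen in under 2% of the other Pomc-high cells. *Lgals3*, a galectin (33.9-fold), and *Pou2f2*, a POU factor of B cells (32.7-fold), were each seen in 32.1% of melanotrophs and also in 56.9% and 55.9% of leukocytes. *Tmem200a* and *Myh6* had no UMI in the female melanotroph. Of the 15, 11 could be tested without male lane A and 6 without male lane B, and each of those passed.

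The 15 genes named in the opposite direction had no UMI in any melanotroph, so each fold is a bound. Besides *Neurod1*, *Cacng2* and *Lmx1a* they were *Chrna1*, the α subunit of the muscle nicotinic receptor (929 UMIs in the other Pomc-high cells, at least 19.2-fold lower), *Hspb3*, a small heat shock protein (473 UMIs, at least 9.80-fold), *Galnt14*, a glycosyltransferase (473 UMIs, at least 9.80-fold), *Agtr1a*, the angiotensin II receptor (414 UMIs, at least 8.58-fold), *Trim54*, *Trdn*, or triadin, *Prkce*, a protein kinase C, *Prr15*, *Tgfb3*, *Pdzrn3*, *Ccnjl* and *Pid1* (221 to 368 UMIs, at least 4.58- to 7.63-fold). They were seen in 21.6 to 60.0% of the other Pomc-high cells. In all, 30 of the 235 lower genes had no UMI in a melanotroph. Without male lane A, 4 of the 15 passed and without male lane B 3 did, with adjusted p up to 0.0955 and 0.174, and DESeq2 called 1 of them (adjusted p up to 0.0309).

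By detection, 79 of the higher genes had a UMI in at least 20% of melanotrophs and under 5% of the other Pomc-high cells, and 52 of the lower genes showed the reverse. To set aside depth, each cell was thinned to 4000 UMIs, which kept 55 melanotrophs, 801 other Pomc-high cells and 581 leukocytes. *Drd2* was then seen in 58.2% of melanotrophs, 0.499% of the other Pomc-high cells and 0.516% of leukocytes, *Thy1* in 76.4, 0.999 and 1.38%, and *Oacyl* in 38.2, 0 and 0%. In the other direction, *Avpr1b* was seen in 3.64, 66.8 and 0.344% and *Crhr1* in 9.09, 61.4 and 0%.

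Some of these genes had most of their UMIs in other cells of the gland. Of the UMIs of *Drd2* in the whole table, 22.8% lay in the 56 melanotrophs, 2.45% in the other Pomc-high cells and 74.8% in the remaining 6981 cells, which include lactotrophs, the main D2 cells of the anterior lobe. For *Oacyl* the shares were 76.4, 0.714 and 22.9%, for *Sema3e* 36.7, 0.370 and 63.0%, and for *Thy1* 3.25, 0.408 and 96.3%.

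Markers of other cell types were read in the melanotrophs as well. Of 6 folliculostellate markers, *S100b* (5.56-fold, adjusted p = 4.3e-14) and *Sox2* (3.89-fold, adjusted p = 4.2e-09) were higher and 3 did not pass. The list summed to 2.41 UMIs per 10000 in melanotrophs (0.356 in the female cell, 1.58 in male lane A and 3.25 in male lane B) and 0.682 in the other Pomc-high cells, and its most abundant gene was *S100b* with 71 UMIs. *S100b* was seen in 23 and *Sox2* in 28 of 56 melanotrophs, but *Fxyd1* in 4, *Gstm2* in 4 and *Capn6* in 2, and 16 melanotrophs had UMIs of 2 markers. *S100b* passed without male lane A (adjusted p = 3.9e-05) and not without lane B (0.018), and *Sox2* in neither case (0.0031 and 0.0094). The part of folliculostellate RNA in these differences was not tested.

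*Plvap*, a gene of fenestrated endothelium, passed as higher (12.5-fold, adjusted p = 6.0e-06), but 15 of its 16 UMIs lay in 1 melanotroph of male lane A. No UMI was found in the melanotrophs of male lane B, it had too few UMIs to test without either male lane, and DESeq2 did not call it (adjusted p = 0.32). Posterior lobe markers came to 3 UMIs in all melanotrophs, with *Lhx2*, *Nkx2-1*, *Gfap* and *Rax* at 0. The pericyte markers *Col1a1*, *Dcn* and *Lum* were at 0. Of 4 leukocyte markers, *Cd53* and *Laptm5* were at 0, and *Tyrobp* and *Fcer1g* had 6 UMIs each and did not pass. The leukocyte list summed to 0.180 UMIs per 10000 in melanotrophs (0 in the female cell, 0.105 in male lane A and 0.254 in male lane B) and 0.166 in the other Pomc-high cells. *Tshb* of thyrotrophs had 25 UMIs and a log2 fold change of 0.10 (SE 0.37), with *Trhr* and *Dio2* at 0, and *Pou1f1* and *Lhb* did not pass.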

How the data were processed

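Deposited data were whole-number UMI counts per gene and cell; per the labels and methods, the authors made them with Cell Ranger 2.1 on an NCBI rat annotation extended at gene ends and merged the 4 lanes with mapped reads subsampled to equal depth. Lanes were matched to sexes by their numbers of cells (*Eif2s3y*: 0 and 1 UMIs in female, 2038 and 2100 in male lanes), and replicate numbers are not known. Doublets were called with 30% synthetic doublets and 30 neighbours (181 cells, 2 of them melanotrophs) and kept. 60 cells, no melanotroph among them, shared a barcode with another lane. UMIs were summed per lane and group and fitted with edgeR 4.0.16 (quasi-likelihood, TMM, lane as block, at least 30 UMIs, two-sided, Benjamini-Hochberg). The edgeR fit took female lane B (28059 melanotroph UMIs) and male lanes A and B (284490 and 354372), against 2305544 to 2969345 in the other Pomc-high cells; female lane A had no melanotroph. Thinning used 4000 UMIs per cell. Named genes were the 15 largest log2 fold changes each way among called genes with a UMI in 20% of cells and 1 direction in both male lanes, passing over LOC and similar numbers, plus list members. The members, lists and tests were chosen with earlier results of these data known. The tests were checked on simulated data. A few genes that the rule or the lists would name are not reported here by name, and the counts include them.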

Additional observations from a re-analysis of the deposited data

How the results depend on the processing

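Of the edgeR calls, 254 were genes higher in melanotrophs than in other Pomc-high cells and 235 were genes lower in melanotrophs than in other Pomc-high cells. Both counts stayed within 1.5 times under other scalings, other filters, other selections of melanotrophs and removal of doublets. They moved to 123 and 54 with DESeq2 1.42.0, to 76 and 32 after thinning to 4000 UMIs, and to 518 and 611 at an adjusted p of 0.05. Leaving out 1 lane gave 64 to 326 higher and 34 to 349 lower genes; 67 and 34 of those found without male lane A, and 64 and 33 of those found without male lane B, were also called with all lanes. With no replicate block for the lane, 316 and 350 genes passed (252 and 234 of them also called with the block), where the block pairs the cell groups of 1 lane. None of 113 called genes that were listed or named changed sign under any of these settings where it could be tested, and DESeq2 called 52 of the 113. The female share fell to 0% with doublet calls left out, was 0.107% with marker thresholds set by Otsu's method, and ranged from 0 to 0.0537% with a lane left out. The male share was 0.799% when a *Pax7* UMI was required and 0.774% when 3 *Pcsk2* UMIs were required as well, and ranged from 1.17 to 1.49% with a lane left out. With 56 cells, genes at low levels could not be tested, and a fold for a gene with no UMI is a bound that covers counting error only.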

Other observations

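A few called genes were looked at after their values were seen, all outside the lists except *Ly6h*, which is among the study's corticotroph-dominant genes. *Alcam*, a cell adhesion molecule, was at 7.51 in the female melanotroph and 5.71 and 6.02 in male lanes A and B, against 1.01 to 1.04 in the other Pomc-high cells (5.31-fold higher, edgeR adjusted p = 1.3e-30). *Ntrk2*, the receptor of BDNF, had 1 UMI in melanotrophs and 1576 in the other Pomc-high cells (ratio of rates 98.0, counting interval 17.6 to 3872). *Nnat*, an imprinted gene of neuroendocrine cells, was at 0, 0.285 and 1.49 against 12.8 to 21.5 (26.3-fold lower, edgeR adjusted p = 6.7e-40), and *Ly6h* at 3.75, 4.56 and 4.34 against 19.6 to 20.8 (5.22-fold lower, edgeR adjusted p = 1.5e-15). *Alcam*, *Ntrk2*, *Nnat* and *Ly6h* also passed without male lane A and without male lane B, and the log2 fold change of *Nnat* went from -4.72 to -6.30 without male lane B. That of *Ntrk2*, whose 1 melanotroph UMI lay in male lane B, went from -6.73 to -5.87 without male lane A.

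*Psmb9* and *Psmb10*, catalytic subunits of the immunoproteasome, and *Psme1* and *Psme2*, subunits of its activator, were picked in the same way, so no count is drawn from them. *Psmb9* was at 0, 0.713 and 0.610 in melanotrophs (female lane B, male lanes A and B) against 1.60 to 2.05 in the other Pomc-high cells (2.84-fold lower), and *Psmb10* at 0.536, 1.14 and 0.610 against 2.51 to 2.85 (3.27-fold lower). *Psme1* was at 5.36, 4.28 and 3.96 against 10.4 to 10.9 (2.79-fold lower) and *Psme2* at 4.83, 2.81 and 2.63 against 6.49 to 7.66 (2.58-fold lower). The levels of each gene did not overlap between the groups, but none of the 4 calls held without male lane A (edgeR adjusted p up to 0.162) or without male lane B (up to 0.0985). *Erap1*, a peptidase that trims antigens, had 3 UMIs, all in male lane A, against 520 (ratio of rates 10.8, interval 3.67 to 52.4) and passed without male lane A but not without male lane B (edgeR adjusted p = 0.0937). Its log2 fold change went from -3.57 to -2.38 without male lane B.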
